A study of Mus musculus with 12 samples.

Results

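The miR-99/100 and miR-125 families were followed in mouse embryonic fibroblasts (MEFs) on Agilent miRNA microarrays. The 5 members are mmu-miR-99a, mmu-miR-99b, mmu-miR-100, mmu-miR-125a-5p and mmu-miR-125b-5p, chosen by name from the 650 mouse miRNAs with probes on the array. All 5 passed the filter on dim signals, which left 175 miRNAs for testing. The cells were ATF6a knockout (KO) or ATF6a wild type (WT) MEFs of C57BL/6 background. KO cells were untreated or received tunicamycin at 2 ug/mL for 12 h or 24 h, and WT cells were handled in the same way. Each of the 6 groups had 2 arrays from independent experiments, hybridised with 100 ng of RNA. The labels do not say whether the MEFs were primary or an immortalised line, nor how many embryos they came from. The miRNA probes hold no measure of the Atf6 gene, so the genotype labels were not checked here.

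The mature strands of these miRNAs come from clusters in which a miR-99/100 gene, a let-7 gene and a miR-125 gene lie in that order and are thought to be transcribed together. In mammals the miR-99/100 family is known for repressing mTOR and IGF1R, and miR-125b for repressing pro-apoptotic genes such as Bak1. Tunicamycin blocks N-glycosylation and loads the endoplasmic reticulum with unfolded proteins, which activates the sensors ATF6a, PERK and IRE1. The RNase of IRE1 has been reported to cut precursors of miR-17, miR-34a, miR-96 and miR-125b. The arrays read mature miRNAs and not precursors.

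The mature sequences are shown because members of one family differ by few bases, which bears on what a hybridisation probe can tell apart. They are RefSeq sequences on GRCm38.p6, found for all 5 members, all on the plus strand, written 5′ to 3′ with the seed (bases 2 to 8) in capitals.
miR-99a: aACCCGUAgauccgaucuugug
miR-100: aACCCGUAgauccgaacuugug
miR-99b: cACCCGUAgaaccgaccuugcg
miR-125a-5p: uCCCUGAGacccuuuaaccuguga
miR-125b-5p: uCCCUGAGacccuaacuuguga
The first 3 share the seed ACCCGUA, and the miR-125 pair shares CCCUGAG. Counted from the 5′ end, miR-99a and miR-100 differ by a single substitution, U16A. From miR-99a to miR-99b there are 4 substitutions, A1C, U11A, U16C and U21C. The miR-125 strands are identical over their first 13 bases, and miR-125a-5p is 24 bases long against 22 for miR-125b-5p. How far a probe for one member binds another was not tested.

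RefSeq places Mir99a at chr16:77598940-77598961, followed by Mirlet7c-1 and Mir125b-2, with no host gene listed. Mir100 lies at chr9:41531437-41531458, followed by Mirlet7a-2 and Mir125b-1, and both Mir100 and Mir125b-1 are inside the non-coding gene Mir100hg. Mir99b (chr17:17830194-17830215) and Mir125a (chr17:17830817-17830840) flank Mirlet7e inside Spaca6. The mature miR-125b-5p from Mir125b-1 (chr9:41581940-41581961) and Mir125b-2 (chr16:77646279-77646300) is the same sequence, so its signal is the sum of both loci.

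Each value below is the scanner's processed signal divided by the array's own 75th percentile, a percentile of the 87 probes that cleared the background on each of the 12 arrays. It is given in percent of that percentile, or on the log2 scale, where 0 is the percentile itself. Values under a floor of 0.0309 of the percentile (log2 of -5.02) were set to the floor. Each member has 2 probes, whose log2 values were averaged. Between 85 and 171 miRNAs were above background per array. On the 4 second-replicate arrays of the treated groups, the dimmest probe well above background lay at log2 values between -3.67 and -2.87, against -5.65 to -4.75 on the other 8 arrays. Untreated arrays shared 1 slide and treated arrays a second slide: an effect of tunicamycin and one of the slide cannot be told apart. WT arrays occupied 1 row of each slide and KO arrays the other, so genotype and row cannot be told apart either. Per the file headers, replicate 1 and replicate 2 arrays of a slide were scanned in separate sessions, each with both genotypes. Among fibroblast and mesenchymal markers, miR-199a-3p, miR-199a-5p, miR-214 and miR-21 were above background on 12 arrays and miR-143 on 10, while miR-145 was above it on 0. Of 15 markers of other cell types, 13 were above background on no array; miR-206 was above it on 3 and miR-294 on 2 treated arrays. The summed scaled signal of those 15 was between -2.34% and 36.6% on treated arrays and between -0.747% and 1.29% on untreated arrays. Less of a miRNA per cell and fewer cells of a type that makes it cannot be told apart in bulk RNA.

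Tunicamycin was accompanied by lower miR-99a and miR-100 in WT cells at both times and by lower miR-125b-5p at 24 h. Both miR-99a and miR-100 passed the filter on dim signals through untreated groups alone. No treated group had a probe of theirs well above background on both arrays. Such a filter favours a fall, so the calls for these miRNAs are not independent of it. In KO cells, miR-100 at 12 h was the single member past the threshold of 0.05 on the adjusted p from limma, a linear model with a moderated variance fitted over all groups. Adjustment was by Benjamini-Hochberg over all 175 miRNAs. Neither miR-99b nor miR-125a-5p passed that test for tunicamycin in either genotype. Of the 5 members, 1 passed in KO cells at 12 h and 0 at 24 h, against backgrounds of 17.1% and 10.3% of all miRNAs tested. In WT cells 2 passed at 12 h and 3 at 24 h, against 44.6% and 41.1%. With 5 members these counts do not set the families apart from the background. The same treated arrays had lower fibroblast and mesenchymal marker signal, summed to between 1390% and 2130% on treated arrays and between 2680% and 3350% on untreated ones; its part in these results was not tested. Normalisation decided many of the calls: quantile normalisation left 1 WT call at each time, and scaling on all probes or a normexp background correction left 0. For miR-100 the differences in WT cells at 12 h and 24 h kept their direction, at -1.02 and -0.88 with quantile normalisation and -0.89 and -0.66 with scaling on all probes. With that scaling miR-99a was at -1.57 at both times. Treated WT arrays set to the floor make these miR-99a values equal, so they are not sizes. With normexp miR-99a was at -0.94 and -0.90 and miR-100 at -0.37 and -0.32.

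**Figure D1:**
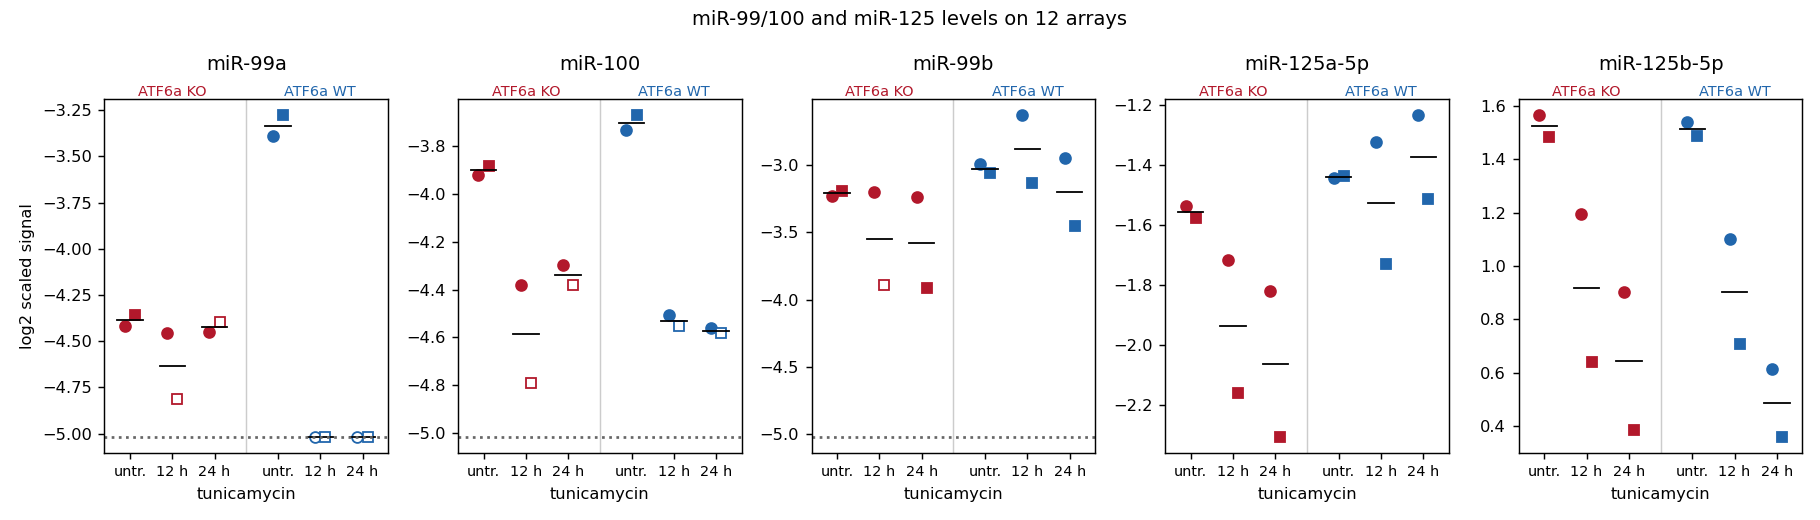
Log2 scaled signal (y axis, relative to each array's 75th percentile) of the 5 miRNAs on each array, by genotype and hours of tunicamycin. Circles are replicate 1, squares replicate 2, bars group means (n = 2), open symbols arrays on which no probe of the miRNA was well above background, and the dotted line the floor of -5.02; all 4 treated WT arrays lie on that floor for miR-99a.

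The miR-99/100 family is described first. In KO cells, miR-99a was 4.69% and 4.88% untreated, 4.55% and 3.55% at 12 h, and 4.58% and 4.75% at 24 h. In WT cells it was 9.55% and 10.3% untreated, and 3.09%, the floor, on both arrays at each time of treatment. Untreated WT arrays were thus the highest, treated WT arrays the lowest, and every KO array lay between them. From high to low, mean log2 values were -3.33 ± 0.08 in untreated WT, -4.39 ± 0.04 in untreated KO, -4.42 ± 0.04 in KO at 24 h, -4.64 ± 0.25 in KO at 12 h, and the floor in WT at both times (SD, n = 2). The 3 KO groups did not separate from each other beyond their spread.

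In WT cells miR-99a fell, with a log2 difference of -1.68 ± 0.11 (SE) at both times (limma, adjusted p = 5.27e-05 at 12 h and 4.22e-05 at 24 h). Values set to the floor have no spread of their own, which lowers these SEs, and the differences are not sizes. Because no treated WT array had a miR-99a probe well above background, the fall is best given as a bound: at least 2.01-fold lower at 12 h and at least 1.52-fold lower at 24 h. The 24 h bound rests on the mean of its arrays: on replicate 2 the dimmest measurable signal, a log2 of -2.87, was itself above the untreated WT level. In KO cells the log2 difference of miR-99a was -0.25 ± 0.11 at 12 h and -0.04 ± 0.11 at 24 h, neither past the threshold (limma, adjusted p = 0.191 and 0.9). On treated KO arrays it was above background on replicate 1 alone.

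The KO change of miR-99a minus its WT change was 1.43 ± 0.16 (limma, adjusted p = 0.00168) after 12 h and 1.65 ± 0.16 (limma, adjusted p = 0.000917) after 24 h. It was the single member past that test at each time, against 9.71% of all miRNAs at 12 h and 13.1% at 24 h. The floor largely fixes these values: with treated WT at the floor, the difference cannot be under 1.05 whatever KO cells do, since untreated KO lay 0.63 above the floor and untreated WT 1.68. The dimmer probe was at the floor in untreated KO cells already. That the responses differ is therefore not shown by this test. The value kept its sign but not its call with quantile normalisation (1.35 at 12 h, adjusted p = 0.173; 1.59 at 24 h, adjusted p = 0.146), with scaling on all probes (1.101 and 1.165) and with normexp (0.67 and 0.76), all from limma. In untreated cells miR-99a was 1.05 ± 0.11 lower in KO than in WT on the log2 scale (limma, adjusted p = 0.00058), a difference of -1.03 and -1.08 within the 2 scan sessions. With the dimmer probe at the floor in untreated KO cells, this value is not a full size either. The brighter probe alone gave -1.48 ± 0.20 (limma, adjusted p = 0.00156). The SE is pooled over all groups, with treated WT arrays at the floor among them. The untreated difference kept its sign but not its call with quantile normalisation (-0.96, limma, adjusted p = 0.0826) and with scaling on all probes (-0.77, 0.951). The same held with normexp (-0.44, limma, adjusted p = 0.99), the summed signal (-1.55, 0.12) and the deposited table (-0.99, 0.821). At 12 h of tunicamycin KO minus WT over both probes was 0.38 ± 0.11 (limma, adjusted p = 0.0854), and at 24 h 0.59 ± 0.11 (limma, adjusted p = 0.0151), with WT at the floor in both. No fold is given for KO against WT in treated cells, since the dimmest measurable signal there was above the KO mean. Leaving out any 1 of the 4 arrays at 24 h ended that call (adjusted p from 0.0544 to 0.0997).

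The unscaled signal shows the same order without any floor. Its brighter probe gave 44.8 and 36 in untreated KO cells, 32.2 and 23.3 at 12 h and 32.8 and 21.5 at 24 h. In WT cells that probe gave 76.4 and 87.2 untreated, 4.43 and 0.824 at 12 h, and 1.5 and -0.66 at 24 h. Every treated KO array exceeded every treated WT array on this probe, while both untreated WT arrays exceeded both untreated KO arrays. The dimmer probe gave 11 and 9.33 in untreated KO cells and 16.6 and 21.4 in untreated WT cells. It lay between 1.53 and 6.7 on treated KO arrays and between -2.91 and 0.186 on treated WT arrays, well above background on none of them.

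**Figure D2:**
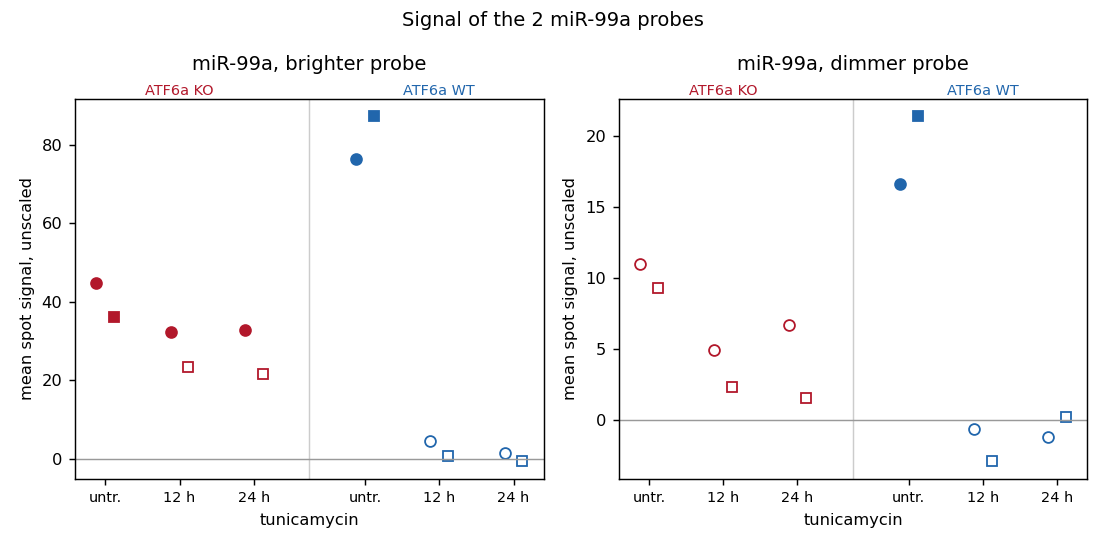
Mean spot signal of the 2 miR-99a probes (y axis, scanner units, not scaled) by genotype and hours of tunicamycin. Filled symbols are arrays on which the probe was well above background, circles replicate 1 and squares replicate 2; treated WT arrays lie near 0 and treated KO arrays above them on both probes.

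In KO cells miR-100 was 6.61% and 6.78% untreated, 4.79% and 3.62% at 12 h, and 5.08% and 4.79% at 24 h. In WT cells it was 7.52% and 7.86% untreated, 4.4% and 4.26% at 12 h, and 4.23% and 4.17% at 24 h. No treated array of either genotype reached its untreated level. The order of mean log2 values ran from -3.70 ± 0.05 in untreated WT and -3.90 ± 0.03 in untreated KO to -4.34 ± 0.06 in KO at 24 h, -4.53 ± 0.03 in WT at 12 h, -4.57 ± 0.01 in WT at 24 h and -4.59 ± 0.29 in KO at 12 h (SD, n = 2). The KO arrays at 12 h spanned both treated WT groups.

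In KO cells the log2 difference of miR-100 was -0.69 ± 0.12 after 12 h, past the threshold (limma, adjusted p = 0.00916), and -0.44 ± 0.12 after 24 h, not past it (limma, adjusted p = 0.0701). In WT cells both passed, at -0.83 ± 0.12 (limma, adjusted p = 0.0015) and -0.87 ± 0.12 (limma, adjusted p = 0.00144). The KO change minus the WT change was 0.14 ± 0.17 after 12 h and 0.43 ± 0.17 after 24 h, neither past the threshold (limma, adjusted p = 0.68 and 0.164). The dimmer of its probes was at the floor on all treated arrays, and the miRNA was above background on replicate 1 alone in each treated group. The KO call at 12 h was lost without the second untreated KO array (limma, adjusted p = 0.0652). KO minus WT was -0.20 ± 0.12 in untreated cells, -0.06 ± 0.12 at 12 h and 0.23 ± 0.12 at 24 h, none past the threshold.

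In the authors' deposited table, and in the scanner's own sum per miRNA from which it was made, miR-100 runs the other way. The deposited log2 difference was 3.41 in KO cells at 12 h, and 3.24 at 12 h and 3.16 at 24 h in WT cells; no such difference passed the test (limma, adjusted p = 0.202, 0.167 and 0.316). For KO at 12 h and WT at 24 h the deposited table lists a value for 1 of the 2 arrays. On 5 treated arrays the summed signal of miR-100 did not match its probes. On KO replicate 1 at 24 h it did, at 35.08 for both. On WT replicate 2 at 24 h and KO replicate 2 at 12 h miR-100 was not listed as detected. At 12 h, replicate 1 had a summed signal of 557.6 in KO cells where its probe totals add up to 31.27, and 608.3 in WT cells where they add up to 33.33. On the untreated arrays the 2 quantities were equal within 1% for miR-100, for example 57.65 in KO cells and 40.28 in WT cells on replicate 1. Over all 5 members, the summed signal was above 2 times the probe total in 8 of 60 values, all 8 on treated arrays: 5 of miR-100, 2 of miR-99b and 1 of miR-125a-5p. Over all miRNAs listed as detected, the same excess was found on treated and untreated arrays alike, in 24% to 33.3% of them on treated arrays and 27.9% to 29.9% on untreated arrays. The cause was not tested, and the values here rest on the probes.

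**Figure D3:**
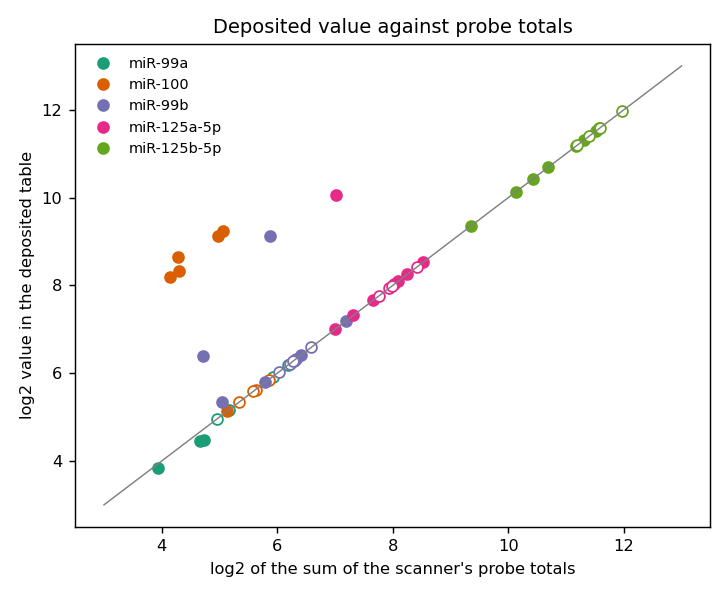
Deposited log2 value (y axis) against the log2 of the summed probe totals (x axis) for each member and array listed as detected. Filled points are treated arrays, open points untreated ones, and the line marks equality; 8 filled points lie more than 1 log2 unit above the line, 5 of them miR-100.

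In KO cells miR-99b was 10.6% and 10.9% untreated, 10.8% and 6.74% at 12 h, and 10.6% and 6.63% at 24 h. WT cells had 12.5% and 12% untreated, 16.1% and 11.4% at 12 h, and 12.9% and 9.11% at 24 h. The second replicate was the lower one in all 4 treated groups, and the groups overlapped between treated and untreated cells. Tunicamycin differences were -0.33 ± 0.32 and -0.36 ± 0.32 in KO cells at 12 h and 24 h, and 0.15 ± 0.32 and -0.17 ± 0.32 in WT cells (limma, adjusted p from 0.513 to 0.756). Neighbours in the order of group means, from the lowest, -3.58 ± 0.48 in KO at 24 h, to the highest, -2.88 ± 0.35 in WT at 12 h (SD, n = 2), did not separate beyond their spread, while the untreated arrays of the genotypes did not overlap.

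KO minus WT for miR-99b was -0.18 ± 0.32 in untreated cells, -0.66 ± 0.32 at 12 h and -0.37 ± 0.32 at 24 h, none past the threshold (limma, adjusted p = 0.844, 0.324 and 0.647). Within the 2 scan sessions of the treated slide the differences were -0.57 and -0.76 at 12 h and -0.29 and -0.46 at 24 h. With scan session as a block, an alternative added after the data were seen, both passed the test (limma, adjusted p = 0.00744 and 0.0405). On the second KO array at 12 h neither miR-99b probe was well above background, so the 12 h value rests in part on a signal not measured there.

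Both miR-125 strands were above background on all 12 arrays. In KO cells miR-125b-5p was 296% and 280% untreated, 229% and 156% at 12 h, and 187% and 131% at 24 h. WT cells had 291% and 280% untreated, 215% and 163% at 12 h, and 153% and 128% at 24 h. All 8 treated arrays were below all 4 untreated ones, and the genotypes overlapped at each time. Ordered likewise, mean log2 values were 1.52 ± 0.06 in untreated KO, 1.51 ± 0.04 in untreated WT, 0.92 ± 0.39 in KO at 12 h, 0.90 ± 0.28 in WT at 12 h, 0.64 ± 0.36 in KO at 24 h and 0.49 ± 0.18 in WT at 24 h (SD, n = 2). The treated groups did not separate from each other beyond their spread, which includes the shift between scan sessions. Within each session miR-125b-5p was lower at 24 h than at 12 h in both genotypes.

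In KO cells the log2 difference of miR-125b-5p was -0.61 ± 0.24 at 12 h and -0.88 ± 0.24 at 24 h, neither past the threshold (limma, adjusted p = 0.147 and 0.0694). In WT cells it was -0.61 ± 0.24 at 12 h (limma, adjusted p = 0.078), and it fell by 1.03 ± 0.24 at 24 h (limma, adjusted p = 0.0118). The last call was lost without either untreated WT array or without the second WT array at 24 h (adjusted p from 0.0535 to 0.0706). It was also lost with the brightest probe alone (-0.62, limma, adjusted p = 0.0557) and without the filter on dim miRNAs (-1.03, limma, adjusted p = 0.0796). With scan session as a random block, WT at 12 h and KO at 24 h also passed (limma, adjusted p = 0.0372 and 0.0233). Both probes moved down, by different amounts: at 24 h the differences were -1.28 and -0.48 in KO cells and -1.43 and -0.62 in WT cells. KO minus WT was 0.01 ± 0.24 in untreated cells, 0.01 ± 0.24 at 12 h and 0.16 ± 0.24 at 24 h, with 95% intervals from -0.56 to 0.58, from -0.56 to 0.58 and from -0.41 to 0.73. The KO change minus the WT change was 0.00 at 12 h, with a 95% interval from -0.80 to 0.81, and 0.14 at 24 h, from -0.66 to 0.95.

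In KO cells miR-125a-5p was 34.5% and 33.5% untreated, 30.5% and 22.4% at 12 h, and 28.3% and 20.2% at 24 h. WT cells had 36.8% and 37% untreated, 40% and 30.2% at 12 h, and 42.5% and 35% at 24 h. With both probes averaged, all treated KO arrays were below the untreated KO arrays, whereas treated WT arrays lay on both sides of the untreated ones. Tunicamycin differences were -0.38 ± 0.22 and -0.51 ± 0.22 in KO cells (limma, adjusted p = 0.288 and 0.216), and -0.09 ± 0.22 and 0.06 ± 0.22 in WT cells (limma, adjusted p = 0.796 and 0.889). Its probes disagreed at 24 h, with differences of 0.54 and -0.41 in WT cells and 0.071 and -1.085 in KO cells (brighter probe first). The lower KO mean at 24 h thus came from the dimmer probe, which was not well above background on replicate 2. On the brighter probe, KO replicate 1 at 24 h (-0.459) lay above both untreated KO arrays (-0.605 and -0.741). Mean log2 values over both probes were -1.56 ± 0.03, -1.94 ± 0.31 and -2.06 ± 0.34 in KO cells (untreated, 12 h, 24 h) and -1.44 ± 0.005, -1.53 ± 0.29 and -1.37 ± 0.20 in WT cells (SD, n = 2).

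KO minus WT for miR-125a-5p was -0.12 ± 0.22 in untreated cells, -0.41 ± 0.22 at 12 h and -0.69 ± 0.22 at 24 h, none past the threshold (limma, adjusted p = 0.878, 0.426 and 0.108). Within scan sessions it was -0.39 and -0.43 at 12 h, and -0.59 and -0.79 at 24 h. With session as a block both treated differences passed the test (limma, adjusted p = 0.0305 and 0.00341), as did the KO change minus the WT change at 24 h, -0.57 (limma, adjusted p = 0.0302). Members past the main test between genotypes numbered 1 of 5 in untreated cells, 0 at 12 h and 1 at 24 h, each time miR-99a, against 28%, 7.43% and 9.71% of all miRNAs tested. Between 24 h and 12 h, with genotypes averaged, 0 of 5 passed, against 8%. For miR-125b-5p that difference was -0.35 ± 0.17 (limma, adjusted p = 0.379), or -0.39 and -0.30 within sessions, and it passed with session as a block (limma, adjusted p = 0.0238).

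**Figure D4:**
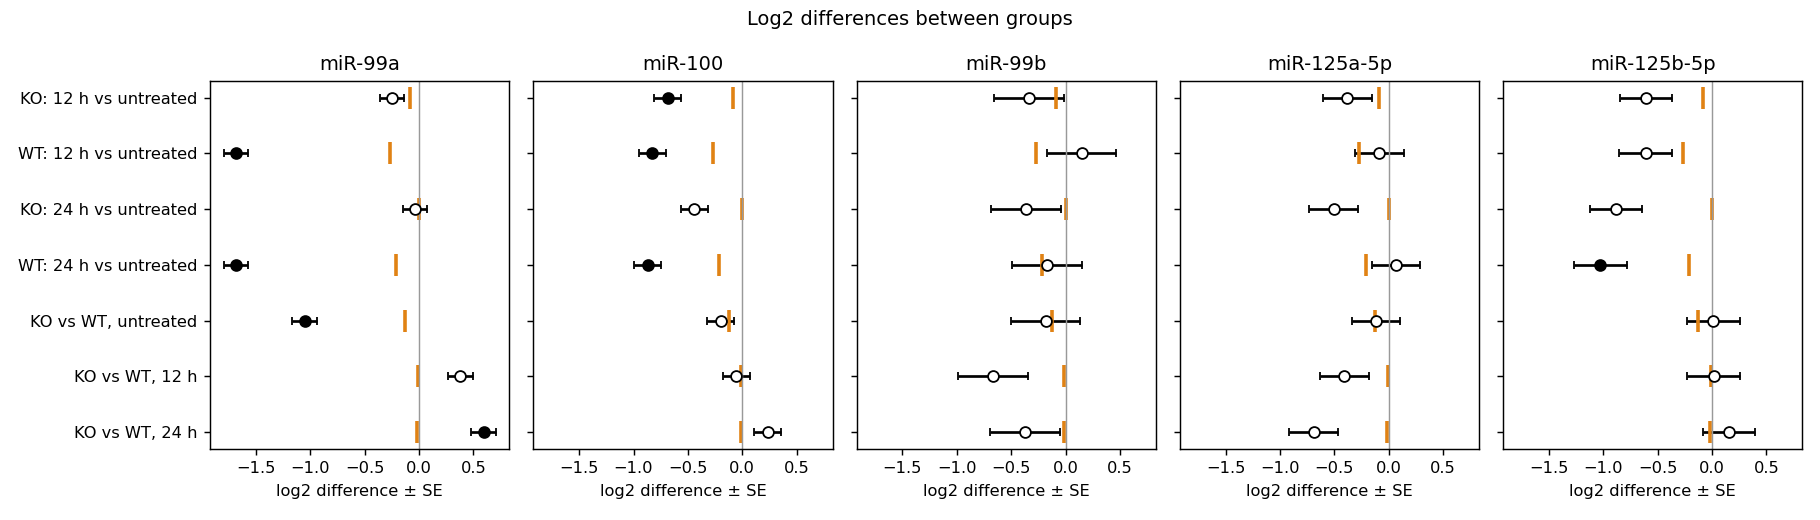
Log2 difference with its SE (x axis) for each member and comparison (rows), from limma on all 12 arrays. Filled points have an adjusted p under 0.05 and orange ticks mark the median of all 175 miRNAs tested, which was lowest, -0.27, for WT cells at 12 h; the differences of miR-99a in WT cells rest on values at the floor.

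A ratio of 2 miRNAs within an array is free of the scaling and of any change that affects all probes of the array alike. Changes that differ between probes do not cancel. In WT cells at 24 h the 2 probes of miR-125b-5p changed by -1.427 and -0.625, and those of miR-125a-5p by -0.407 and 0.537. An effect of tunicamycin on a ratio and an effect of the slide that differs between probes cannot be told apart. The log2 ratio of miR-125a-5p to miR-125b-5p in KO cells averaged -3.08 ± 0.03 untreated, -2.85 ± 0.08 at 12 h and -2.71 ± 0.02 at 24 h (SD, n = 2). In WT cells it averaged -2.95 ± 0.04 untreated, -2.43 ± 0.01 at 12 h and -1.86 ± 0.02 at 24 h. It was higher at each later time in both genotypes, with no overlap between times, and all treated WT arrays were above all KO arrays. These ratios hold no information on which miRNA is more abundant, since each probe has its own response.

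Treated minus untreated, the ratio differed by 0.55 (exact permutation test within genotype, two-sided, p = 0.00444, the smallest this design allows). KO minus WT, it differed by -0.47 (exact permutation test within treatment, p = 0.00926, again the smallest possible). After Benjamini-Hochberg adjustment over 10 pairs of members and both effects, the values were 0.0444 and 0.0463. For miR-99b over miR-125b-5p the corresponding differences were 0.60 and -0.47, with the same exact permutation p-values (adjusted 0.0444 and 0.0463). For the members of the chr17 cluster, miR-99b over miR-125a-5p, the differences were 0.05 for tunicamycin (exact permutation p = 0.68) and -0.00 for genotype (exact permutation p = 1). In WT cells the times behind these means went opposite ways: the ratio averaged -1.59, -1.36 and -1.83 (untreated, 12 h, 24 h). In KO cells it averaged -1.66, -1.61 and -1.51, with both treated means above the untreated one. The KO mean lay below the WT mean untreated and at 12 h, and above it at 24 h. The other 7 pairs did not pass for either effect. Leaving out single arrays left between 0 and 4 pairs past the threshold for tunicamycin and between 0 and 2 for genotype. The calls of both ratios to miR-125b-5p were lost without any untreated array, without KO replicate 1 at 24 h or without KO replicate 2 at 12 h, at adjusted values from 0.0533 to 0.0667. Fewer arrays allow fewer permutations and so a larger smallest p. The differences stayed between 0.54 and 0.63 for tunicamycin and between -0.49 and -0.45 for genotype in these repeats.

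Both brighter and dimmer probes were set against each other. The brighter probes of miR-125a-5p and miR-125b-5p gave mean log2 ratios of -3.81, -3.73 and -3.26 in KO cells (untreated, 12 h, 24 h) and -3.68, -3.33 and -2.52 in WT cells. The dimmer probes gave -2.35, -1.98 and -2.15 in KO cells and -2.22, -1.53 and -1.20 in WT cells. In WT cells the ratio was higher at each later time with either choice. The dimmer miR-125a-5p probe was not well above background on the second replicate of WT at 24 h and of KO at 12 h and 24 h, which limits those ratios. With the scanner's summed signal, which for miR-125a-5p held 1074 against a probe total of 130.2 in KO cells at 24 h (replicate 2), the genotype difference was 0.06 and did not pass. With that signal the tunicamycin differences of miR-125a-5p and miR-99b over miR-125b-5p were 0.87 and 1.09 and did not pass either (exact permutation, adjusted p = 0.571 and 0.356). Instead miR-99a over miR-99b and over miR-125a-5p passed for tunicamycin, at -2.51 and -2.28 (exact permutation, adjusted p = 0.0444 for both). With that signal miR-99a was detected on no treated WT array, so these differences rest on a floor and are not sizes. The sum of miR-99b was 9.4 times its probe total on KO replicate 2 at 12 h. That of miR-125a-5p was 8.25 times its own on KO replicate 2 at 24 h.

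**Figure D5:**
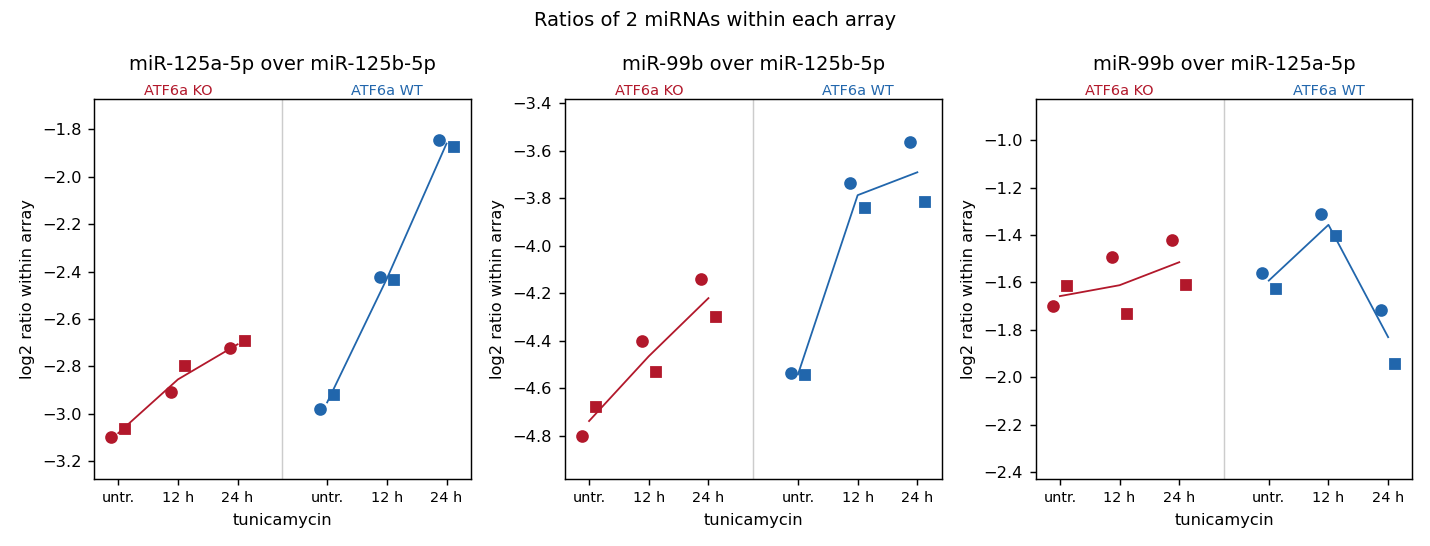
Log2 ratio of 2 miRNAs within each array (y axis, each panel spanning 1.6 log2 units) by genotype and hours of tunicamycin. Circles are replicate 1, squares replicate 2 and lines join group means; the ratio of miR-125a-5p to miR-125b-5p reached -2.71 in KO and -1.86 in WT cells at 24 h, while miR-99b over miR-125a-5p stayed between -1.94 and -1.31.

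Profiles were also compared with those of all other tested miRNAs, by the root-mean-square difference (RMS, log2) between profiles centred on their own mean over the 12 arrays. Nearest to miR-99a were miR-210 (0.24), miR-154* (0.25) and miR-143 (0.26), against a median of 0.57 over all others. Of the 12 arrays, miR-210 and miR-154* were above background on 4 each and miR-99a on 6. Their likeness thus rests largely on signals near or at the floor. For miR-99b they were miR-31* (0.15), miR-125a-5p (0.17) and miR-31 (0.20), and for miR-125a-5p they were miR-31 (0.16), miR-99b (0.17) and miR-31* (0.17). The chr17 members were thus among each other's 3 nearest profiles. For miR-100, above background on 8 arrays, the nearest were miR-21 (0.12), miR-103 (0.14) and miR-361 (0.14), the last above background on 7. The profile of miR-125b-5p lay nearest to those of miR-21 (0.22), miR-100 (0.24) and miR-103 (0.24). These are descriptions over arrays that share slides and scan sessions, and they carry no test.

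The let-7 miRNAs, known as repressors of growth genes such as Lin28 and Hmga2 and partners of these families in the clusters, were examined as a list. All 9 members of the let-7 list (with miR-98) were tested. In KO cells 1 fell at each time and none rose; in WT cells 1 rose and 1 fell at 12 h, and 2 rose and 1 fell at 24 h. Backgrounds, with both directions pooled, were 17.1% and 10.3% of all miRNAs tested in KO cells and 44.6% and 41.1% in WT cells. Rises and falls pooled, the let-7 counts of 9 are near or below them. By direction, of the 175 miRNAs 11 rose and 67 fell in WT cells at 12 h, and 13 rose and 59 fell at 24 h. In WT cells the let-7 list thus had a larger share of rises and a smaller share of falls than all miRNAs. Those rises are 1 and 2 miRNAs, and the shares were not tested. The one that fell was let-7i, which lies outside these clusters, with log2 differences of -0.996 and -0.775 in KO cells and -1.34 and -1.12 in WT cells. Of the cluster partners, let-7e of chr17 rose in WT cells by 0.70 ± 0.21 at 12 h (limma, adjusted p = 0.0325) and by 0.87 ± 0.21 at 24 h (limma, adjusted p = 0.0141). In WT cells at 24 h let-7b rose as well, by 0.46 ± 0.14 (limma, adjusted p = 0.0365). The calls of let-7e and let-7b were lost with quantile normalisation, which called 0 miRNAs higher in WT cells at either time. Scaling on all probes called 0 miRNAs for tunicamycin in either genotype, so the calls of let-7i were lost there too. The differences of let-7e in KO cells were 0.20 ± 0.21 and 0.50 ± 0.21 and did not pass (limma, adjusted p = 0.591 and 0.211). For let-7c, the partner of miR-99a on chr16, the differences were -0.07 and 0.09 in KO cells and -0.37 and -0.40 in WT cells, none past the threshold. For let-7a, the partner of miR-100 on chr9, they were 0.041 and 0.145 in KO cells and 0.077 and -0.006 in WT cells, again none past it. Whether these let-7 signals come from the cluster loci alone was not tested. The median of the let-7 list was 0.01 and 0.14 in KO cells and 0.11 and 0.25 in WT cells, against -0.09, 0.00, -0.27 and -0.21 over all miRNAs tested. No let-7 member passed between genotypes. Of the opposite strands of the same hairpins, 4 of 6 had probes and 0 passed the filter on dim signals.

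Among the other miRNAs reported as IRE1 substrates, 2 of 3 were tested, and miR-17 was not. The p53-induced miR-34a was lower after tunicamycin at 12 h, with log2 differences of -0.41 ± 0.10 in KO cells and -0.88 ± 0.10 in WT cells (limma, adjusted p = 0.0366 and 0.000753). At 24 h it was -0.04 ± 0.10 in KO cells (limma, adjusted p = 0.899) and -0.43 ± 0.10 in WT cells (limma, adjusted p = 0.0131). At 12 h it was 0.48 ± 0.10 higher in KO than in WT cells (limma, adjusted p = 0.0355). By contrast, miR-96 of the miR-183 cluster did not pass for tunicamycin in KO cells or in WT cells at 12 h, and in WT cells at 24 h it was higher by 0.42 ± 0.10 (limma, adjusted p = 0.0104). KO minus WT for miR-96 was -0.69 untreated, -0.87 at 12 h and -1.03 at 24 h, each past the threshold. With scaling on all probes 0 miRNAs passed in any of these comparisons, so all these calls of miR-34a and miR-96 were lost. Quantile normalisation called 0 miRNAs between genotypes in treated cells and 0 higher in WT cells at 24 h, so those calls were lost as well.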

How the data were processed

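Per the submitters' processing notes, Agilent Feature Extraction 10.7.1.1 read the 12 single-colour arrays. Scanner files deposited by the authors hold an intensity per spot, processed by that software (background-subtracted, per the file headers); the authors' deposited table holds log2 values that equal the log2 of the scanner's summed intensity per miRNA within 1.5e-06. The genome build is not given in the sources used here, and names of miRNAs follow the array's design. Each array held 13715 spots, of which 715 were controls and were left out. Spots flagged by the software as non-uniform or as population outliers were dropped, and the remaining spots of a probe were averaged. A probe counted as well above background with over 0.5 of its remaining spots so marked, and was used if this held on both arrays of a group (306 of 1857 probes). Scaling was by the 75th percentile of 87 probes, and for the floor, each array's lowest scaled signal well above background was found and the median of these 12 values taken. Bounds compare the bright group's mean with the lowest measurable signal of the dim group's arrays. limma 3.58.1 in R 4.3.3 was fitted on 12 arrays and 6 groups, after a test on simulated data.

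Members of every comparison, list members past the threshold and the 3 nearest profiles were named. The members and lists were chosen with earlier results of these data known. The depth of an array is set by its signal, and 2 arrays a group limit the precision. The labels call the replicates independent experiments. Within a slide, replicate numbers coincide with scan sessions (differences between replicates correlated at 0.74 to 0.94 between groups), while across slides the correlations were -0.66 to -0.45, so the numbers were not taken to pair treated with untreated arrays.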

Additional observations from a re-analysis of the deposited data

Results flagged for a closer look

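A test of the KO change minus the WT change picked out miR-99a, with log2 values of 1.43 after 12 h and 1.65 after 24 h of tunicamycin (limma, adjusted p = 0.00168 and 0.000917). At least 1.05 of each is set by the gap between untreated WT and untreated KO cells once treated WT cells are at the floor, so the test does not show that the responses differ. In all 4 treated WT arrays both probes were at the floor, and in treated KO cells 1 of 2 arrays per time had a probe well above background. Among the alternatives with a value, the difference at 12 h lay between 0.67 with normexp and 2.30 with a floor at 0.5 of the main one. No outlier could be sought, since each group has 2 arrays.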

How the results depend on the processing

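Of 125 alternative values for the called differences of members (arrays left out not counted), 79 kept their direction and their call, 40 lost the call and 6 reversed; without regard to calls, 66 of 643 differences changed sign with neither value called. The 6 reversals were those of miR-100: 3.41 (KO, 12 h), 3.24 (WT, 12 h) and 3.16 (WT, 24 h) in the deposited table, and 0.39, 2.80 and 0.0532 with the scanner's summed signal; with that signal the genotype difference of miR-125a-5p over miR-125b-5p was 0.0645 and 0 pairs passed for genotype. The causes were not tested.

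Counts of members past the threshold moved as follows. The deposited table, normexp and scaling on all probes gave 0 in every comparison that had a call (the deposited table has no miR-99a value on treated WT arrays, so miR-99a was not tested there), and quantile normalisation and the summed signal gave 0 except 1 in WT cells at each time. A floor at 0.5 of the main one gave 1 between genotypes at 12 h, where KO minus WT of miR-99a was 0.88. Without the filter, 0 passed between genotypes at 24 h and in KO cells at 12 h, and 2 in WT cells at 24 h. Fitting only the groups compared gave 4 between untreated genotypes, 0 and 1 in KO cells at 12 h and 24 h, and 2 for the difference of responses at 24 h. Scan session as a fixed block gave 2 and 3 between genotypes at 12 h and 24 h, 1 for 24 h against 12 h, and 2 for the difference of responses at 24 h; for tunicamycin it gave 4 and 3 in KO cells and 3 and 3 in WT cells at 12 h and 24 h, with miR-99b (limma, adjusted p = 0.029 and 0.0339) and miR-125a-5p (0.0129 and 0.00827) among those in KO cells, but each session held treated or untreated arrays alone, so a fixed block takes the spread between sessions out of that error. As a random block it gave 2 between genotypes at 24 h and 1 in KO cells at 24 h.

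With the replicate block, 2 members passed between genotypes at 24 h, 2 in KO cells at 12 h and 1 in KO cells at 24 h; 3 passed in WT cells at 12 h, with miR-125b-5p added, and it ended no call. With the pairing crossed between slides, 1 and 2 passed in KO cells and 3 and 3 in WT cells at 12 h and 24 h.

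Leaving out single arrays gave 0 to 3 in KO cells at 12 h, 0 to 2 in KO cells at 24 h, 2 to 3 in WT cells at each time, and 1 to 2, 0 to 1 and 0 to 2 between genotypes untreated, at 12 h and at 24 h. It gave 0 to 2 for 24 h against 12 h, 1 to 2 for the difference of responses at each time, 0 to 4 pairs for tunicamycin and 0 to 2 for genotype. Without either KO array at 12 h, miR-125b-5p passed in WT cells at 12 h (limma, adjusted p = 0.0462) and in KO cells at 24 h (0.0307), and miR-100 in KO cells at 24 h (0.00213). Without replicate 1 of these, miR-99a passed in KO cells at 12 h (log2 difference -0.43, limma, adjusted p = 0.00438); without replicate 2, it passed for KO against WT at 12 h (0.56, adjusted p = 0.00472). The median of all miRNAs in WT cells at 12 h was -0.27, or -0.56 with scaling on all probes and -0.55 with quantile normalisation; in the deposited table, a different summary of the probes, it was 0.47. Signals near background, as for miR-99a and miR-100 in treated cells, limit what these arrays can measure.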
